A study of Homo sapiens with 11 samples.

Results

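JMJD1C binding around 6 genes of the tumour necrosis factor (TNF) and NF-kappaB pathway was examined in Kasumi-1 cells: the receptor genes TNFRSF1A and LTBR, the transcription factor genes NFKB1 and RELA, and the inhibitor genes NFKBIA and TNFAIP3. JMJD1C belongs to the JmjC family of histone demethylases, and Kasumi-1 is an established acute myeloid leukaemia line with the RUNX1-RUNX1T1 fusion. Chromatin bound by JMJD1C was isolated with an antiserum against the N-terminal part of the protein and sequenced (ChIP-seq), in cells for which the labels name no treatment. The series holds 11 libraries from 4 leukaemia lines, with 1 library for each combination of line and target, except that THP1 has no input. Only the peaks deposited for JMJD1C in Kasumi-1 were used. The other 10 libraries, the Kasumi-1 input among them, were not analysed here. A peak belonged to a gene when its summit lay within 50 kb of the gene's span in the hg19 assembly. This gave 41 pairings of a peak with a gene and 35 different peaks of 36191 in the list, since 6 peaks lie within 50 kb of both TNFRSF1A and LTBR on chromosome 12. The peaks were chosen by the measured position of their summits, and TNFRSF1A was selected on the high tag number of its peak, so that number is a description of the choice. The library has no replicate and the peaks were called without input. No p-value is therefore given, intervals cover counting error only, and tags that collect at open or copy-rich DNA cannot be told apart from binding.

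TNFRSF1A encodes the main signalling receptor for TNF and LTBR the lymphotoxin beta receptor. Receptor signalling leads to the destruction of IkappaB-alpha, the product of NFKBIA, which otherwise holds NF-kappaB dimers in the cytoplasm; the classical dimer joins products of NFKB1 and RELA and then enters the nucleus. NFKBIA, NFKB1 and TNFAIP3, whose product is a ubiquitin-editing enzyme that ends the signal, are themselves well-known targets of NF-kappaB, and the pathway is active in many leukaemias.

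Peaks were called within 1 kb of the 5' ends of the spans of NFKBIA, NFKB1, TNFAIP3 and RELA, which are given to 1 kb. The sequences just before the transcription starts of the first 3 are shown because each holds a kappaB-like word, which neither of the 2 RELA windows does. They are the 250 bases before the start in RefSeq (assembly GRCh38.p14), written 5' to 3' on the gene's strand, with capitals for matches on either strand to a word of GGG, 2 free bases, TT, 1 free base and CC. The windows are chr14:35404750-35404999 on the minus strand for NFKBIA, chr4:102501109-102501358 on the plus strand for NFKB1 and chr6:137867009-137867258 on the plus strand for TNFAIP3.
NFKBIA: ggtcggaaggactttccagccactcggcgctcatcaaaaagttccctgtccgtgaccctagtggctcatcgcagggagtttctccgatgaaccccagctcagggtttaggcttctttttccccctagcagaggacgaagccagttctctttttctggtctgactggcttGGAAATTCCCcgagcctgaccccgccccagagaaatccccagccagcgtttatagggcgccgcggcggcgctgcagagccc
NFKB1: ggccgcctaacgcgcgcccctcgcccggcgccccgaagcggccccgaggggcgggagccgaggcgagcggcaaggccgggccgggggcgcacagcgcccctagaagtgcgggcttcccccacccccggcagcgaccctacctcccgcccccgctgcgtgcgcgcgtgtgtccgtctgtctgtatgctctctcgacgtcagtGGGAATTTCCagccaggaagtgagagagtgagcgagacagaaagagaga
TNFAIP3: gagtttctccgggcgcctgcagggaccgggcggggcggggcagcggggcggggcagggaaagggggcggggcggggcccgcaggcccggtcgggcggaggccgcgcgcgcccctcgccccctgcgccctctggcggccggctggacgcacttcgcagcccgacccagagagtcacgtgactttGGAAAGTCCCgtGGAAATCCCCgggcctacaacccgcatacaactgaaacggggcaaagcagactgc
NFKBIA has the match GGAAATTCCC from 81 to 72 bases before the start, and NFKB1 has GGGAATTTCC from 49 to 40 bases before it. TNFAIP3 has 2 matches, GGAAAGTCCC from 67 to 58 and GGAAATCCCC from 55 to 46 bases before its start. The word occurs in 5.07% of the 35114 windows of the same length in the table (1779 windows). All 6 genes were matched to the table, with 8 windows because NFKB1 and RELA have 2 starts each, and 3 of the 8 windows hold the word. The window of the other NFKB1 start, not printed here, lacks the word. A looser word of GGG, 5 free bases and CC, which includes every match of the first, is in 6 of the 8 windows but also in 54.4% of all windows. The RUNX word TGTGGT is in 0 of 8 windows and in 10.98% of all, the E-box word CANNTG in 5 of 8 and in 61.8% of all, and the GC-box word GGGCGG in 7 of 8 and in 42.6% of all. The G and C content of the printed windows is 59.2% for NFKBIA, 72% for NFKB1 and 74% for TNFAIP3, against a median of 58% over the table. These positions are in GRCh38.p14 and the peaks are in hg19, so where a word lies within a peak was not tested.

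At TNFRSF1A, JMJD1C signal was concentrated in a single long peak inside the gene. It spans 3131 bp on chromosome 12 from 6444438 to 6447568 and holds 943 tags (95% exact Poisson interval 884 to 1005). Its summit is 4.50 kb downstream of the 5' end of the gene span, which the rule gives to the nearest 1 kb, and the peak's nearest edge is 3.43 kb from that end. It is the only one of the 8 peaks in the TNFRSF1A window whose summit is inside the gene, and it holds 63.9% of the 1476 tags in them. No peak of this list covers the 5' end itself, and its nearest neighbour upstream spans 6456326 to 6457408, with 203 tags (176 to 233), a fold enrichment of 13.54 and its summit 5.92 kb upstream. The RefSeq order of genes places SCNN1A, a sodium channel subunit gene, between TNFRSF1A and LTBR, so a peak between both spans cannot be assigned to either. Downstream of TNFRSF1A, on the side of PLEKHG6, there are 2 weaker peaks, of 52 tags with its summit 5.37 kb beyond the span and of 13 tags 43.6 kb beyond it.

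The TNFRSF1A peak has a fold enrichment of 11.04, close to the list median of 10.87, although few peaks hold more tags. Fold is the height of the summit divided by a background counted over the 10 kb around the peak, and the peak's own tags are part of that count. From the deposited tags, score and fold, that background came out as 1287 tags per 10 kb, of which the peak's own tags make up 73.3%. The tags outside the peak correspond to 501 per 10 kb, against a median of 100.1 around the peaks of the list. The same values give a summit height of 125 overlapping fragments of 88 bp (104 to 149), against a median of 12 in the list. By tags the peak is number 24 of 36191, by summit height number 51, by tags per kb of peak number 176, by score number 253 and by fold number 17577. The list has 216 peaks over 2 kb (0.597%), and this is the only one of them among the 35. Their median fold is 9.49 and their median summit height 50 fragments (quartiles 31 and 83.5, from 214 peaks with a recovered height). Within these 216 it is number 23 by tags, number 23 by summit height and number 75 by fold. These ranks describe a peak that was chosen for its tags.

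**Figure D1:**
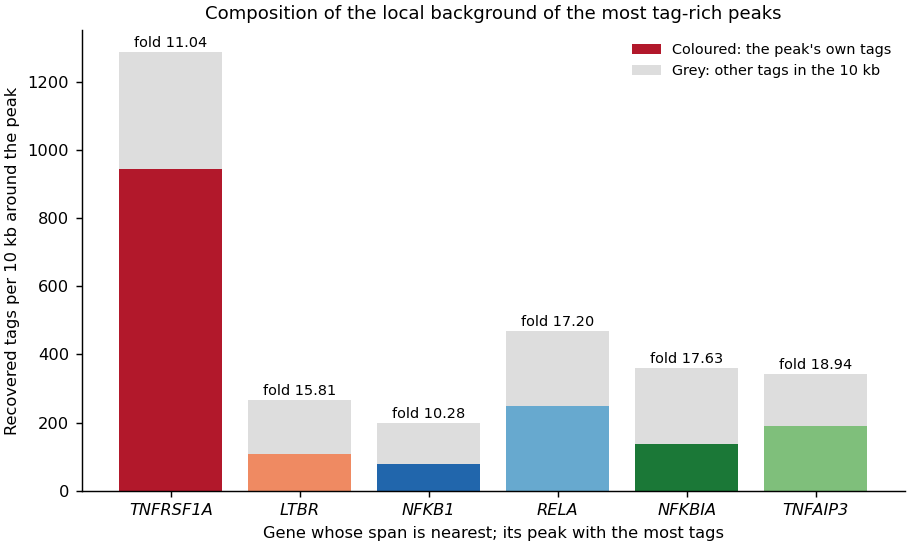
Stacked bars of the tags recovered in the 10 kb around the most tag-rich peak nearest to each gene, with the peak's own tags in colour, the other tags in grey and the deposited fold enrichment above. The TNFRSF1A peak has 943 of 1287 tags of its own and a fold of 11.04, the RELA, NFKBIA, TNFAIP3 and LTBR peaks, with 469, 361, 342 and 266 tags in all, have folds of 17.20, 17.63, 18.94 and 15.81, and the NFKB1 peak, with 199, has a fold of 10.28.

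LTBR, the second receptor gene, had 8 peaks within 50 kb, of which 2 have their summit inside the gene and 6 are shared with the TNFRSF1A window. The peak with the most tags nearest to LTBR spans 6481366 to 6482187 on chromosome 12. It holds 109 tags (89.5 to 131) at a fold of 15.81, with a summit height of 37 fragments, 2.14 kb upstream of the 5' end of the span. A weaker peak from 6485386 to 6486218 lies 1.93 kb downstream of that end, with 50 tags, a fold of 6.13 and a height of 13 fragments. The counting intervals of both peaks, 89.5 to 131 tags upstream and 37.1 to 65.9 tags downstream, do not overlap. Further inside the span, 9.28 kb from its outer end, the peak from 6492854 to 6493683 has 83 tags (66.1 to 103), a fold of 18.47 and a height of 26 fragments. RefSeq lists its start for LTBR inside the gene, near this peak, and not at the outer end. That start is placed in GRCh38.p14, so whether the peak covers it was not tested. Distances given here for LTBR are from the outer end, so upstream and downstream do not refer to the RefSeq start. The remaining 3 peaks nearest to LTBR are small, with 23 tags 7.01 kb upstream and with 22 and 26 tags 24.9 and 31.8 kb beyond the 3' end. The peak of 22 tags has the highest fold of the 8, 18.94, at a recovered background of 90 tags per 10 kb.

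**Figure D2:**
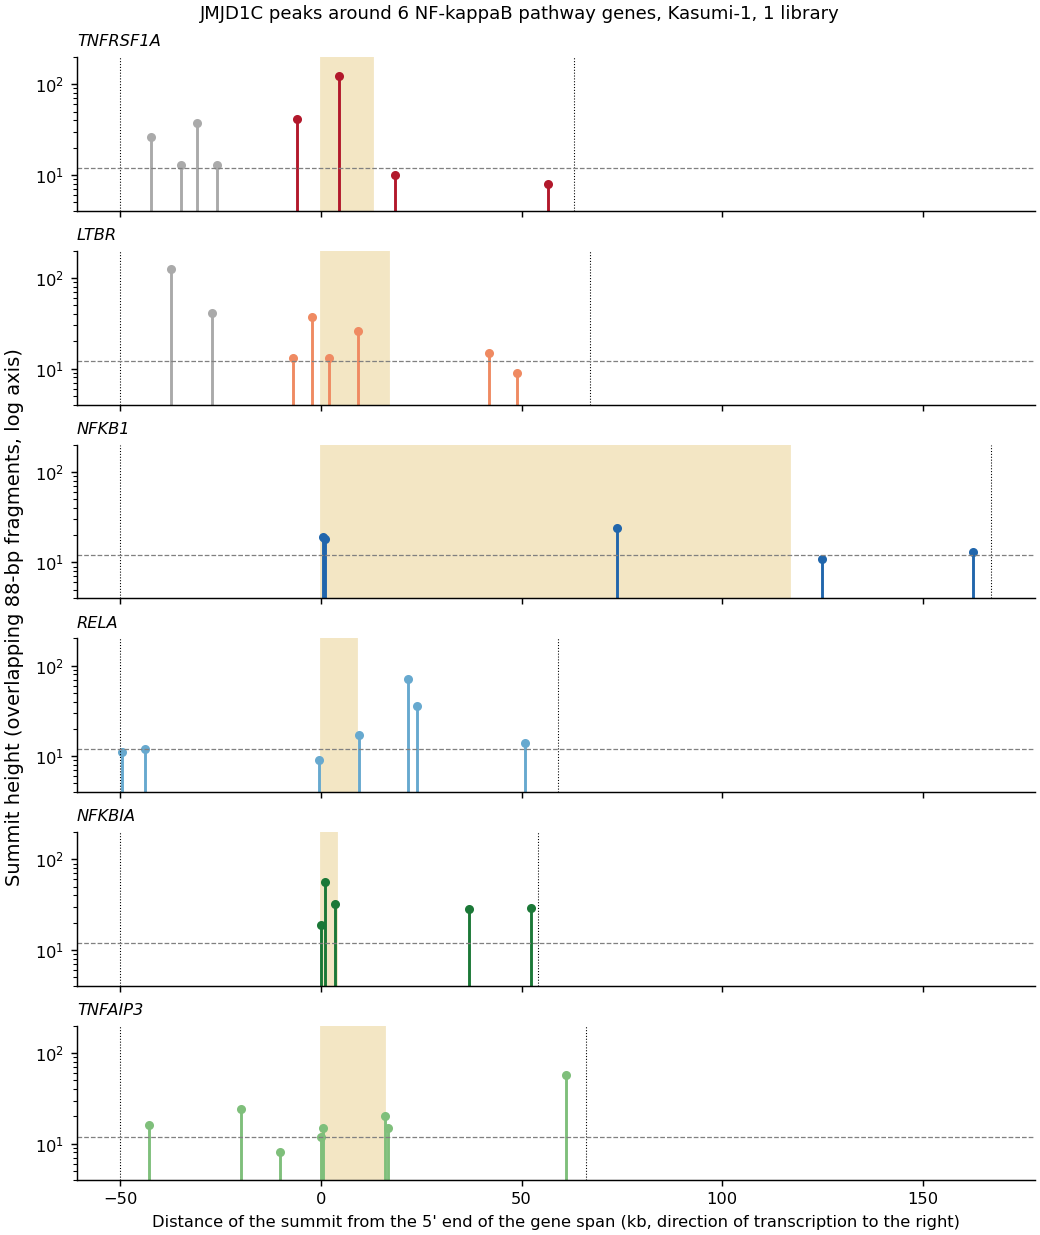
Summit height in overlapping 88-bp fragments (log axis) of each peak against its distance from the 5' end of the gene span in kb, with the gene span shaded, the 50-kb limits dotted and the list median of 12 dashed. Grey stems in the TNFRSF1A and LTBR panels are peaks nearer to the other receptor gene. Among the peaks nearest to each gene, the highest summit lies inside the span at TNFRSF1A (125 fragments), NFKBIA (56) and NFKB1 (about 24, not recovered as a whole number). It lies outside at RELA (71), TNFAIP3 (57) and LTBR (37).

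NFKB1, whose protein is processed into the DNA-binding p50 subunit, had the sparsest window, with 5 peaks and 208 tags (181 to 238) over 217 kb. Of these, 3 lie inside the gene and 2 downstream, and no peak was called in the 50 kb upstream. At the 5' end there are 2 adjoining peaks. The first spans 103422300 to 103422683 on chromosome 4 and holds 33 tags (22.7 to 46.3) at a fold of 11.19. The second spans 103422855 to 103423741 and holds 79 tags (62.5 to 98.5) at a fold of 10.28. Their summits are 19 and 18 fragments high, so the longer peak is wider but not higher. The strongest fold of the window, 22.73, belongs to a peak 73.7 kb inside the gene, from 103495385 to 103495944, with 47 tags (34.5 to 62.5) and a height of about 24 fragments. It is the only one of the 35 peaks with a fold of 20 or more, a level that 9.84% of the list reached. Beyond the 3' end, towards MANBA, a gene for a lysosomal mannosidase, peaks of 26 and 23 tags lie 7.95 and 45.5 kb from the span. NFKB1-AS1, a long non-coding RNA gene on the other strand, precedes NFKB1 in the RefSeq order, so the peaks at the 5' end cannot be assigned to one of both genes.

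RELA, the gene of the p65 subunit with the transactivation domain, was the only one of the 6 genes with no summit inside its span. However, the nearest summits lie only 0.433 kb beyond the 3' end and 0.544 kb before the 5' end. The span is given to 1 kb and RefSeq lists 2 starts for RELA, so this trait depends on where the ends are placed. Its 7 peaks hold 527 tags (483 to 574), and both of the strongest lie beyond the 3' end, where SIPA1 and PCNX3 follow in the RefSeq order. Neither of these peaks can therefore be assigned to one gene. The peak from 65407448 to 65408609 on chromosome 11 holds 248 tags (218 to 281) at a fold of 17.20, with a height of 71 fragments, 12.8 kb from the span. Its neighbour from 65405717 to 65406336 holds 84 tags (67 to 104) at a fold of 8.72, with a height of 36 fragments. These peaks are 1111 bp apart and share a recovered background of 469 tags per 10 kb, so each counts the other's tags in its own fold. The peak next to the 5' end of RELA, from 65430452 to 65430983, holds 29 tags (19.4 to 41.6) at a fold of 7.87 with a height of 9 fragments, which is below the list median of 12. RELA-DT, a long non-coding RNA gene on the other strand, lies next to RELA on the 5' side in the RefSeq order, so this peak cannot be assigned to one of both genes. The peak just beyond the 3' end, 0.433 kb from the span, holds 67 tags (51.9 to 85.1) at a fold of 12.79 with a height of 17 fragments, above the list medians of 30 tags, 10.87 and 12. The other 3 peaks hold 25, 34 and 40 tags and lie 41.9 to 49.7 kb from the span.

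NFKBIA, the inhibitor that NF-kappaB itself induces, had 268 of its 428 tags in peaks within 10 kb of the gene. Of its 5 peaks, 3 lie within about 4 kb, along the whole of this short gene. The highest spans 35872739 to 35873475 on chromosome 14 and holds 136 tags (114 to 161) at a fold of 17.63. Its summit height is 56 fragments (42.3 to 72.7), number 1230 of the list, and the summit lies 0.916 kb inside the gene. The adjoining peak from 35873570 to 35874566 covers the 5' end with 80 tags (63.4 to 99.6), but at a fold of 5.95, the lowest of the 35, and a height of 19 fragments. Both share nearly the same recovered background, 361 and 363 tags per 10 kb, so their folds can be compared directly and the summit inside the gene is the higher one. At the 3' end the peak from 35870223 to 35870721 holds 52 tags (38.8 to 68.2) at a fold of 10.16, with a height of 32 fragments. Further downstream, 32.9 and 48.4 kb from the span, 2 peaks hold 80 tags each at folds of 16.66 and 17.44, with heights of 28 and 29 fragments. The RefSeq order places PSMA6 on this side, so these 2 peaks cannot be assigned to one gene.

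TNFAIP3 had 8 peaks with 487 tags (445 to 532), spread over both flanks. At the 5' end there are 2 adjoining peaks that are only 22 bp apart. The first, from 138187660 to 138188203 on chromosome 6, holds 31 tags (21.1 to 44.0) at a fold of 7.14. The second, from 138188226 to 138189457, holds 88 tags (70.6 to 108) at a fold of 8.83. The span's end is given to 1 kb, so which of both peaks covers the transcription start cannot be told from it. The heights of both peaks, 12 and 15 fragments, are close to the list median of 12, while the second peak is long, at 1232 bp. Around the 3' end, the peaks from 138203710 to 138204207 and from 138204564 to 138204978 hold 46 and 24 tags. The strongest peak is distal, from 138248738 to 138249382, with its summit 45.1 kb beyond the 3' end. It holds 191 tags (165 to 220) at a fold of 18.94, with a height of 57 fragments (43.2 to 73.9), and has 39.2% of the tags in the window. It packs 296 tags per kb of peak, which is number 195 of the list, close to the 301 tags per kb of the TNFRSF1A peak. Its nearest neighbour is 30.5 kb away. SIMALR and LINC02865, both long non-coding RNA genes, follow TNFAIP3 in the RefSeq order, so this distal peak cannot be assigned to one gene. Upstream, a peak from 138167828 to 138168355, 19.9 kb before the 5' end, has 66 tags (51 to 84.0) at a fold of 19.62, the highest fold of the window. The other 2 upstream peaks hold 14 and 27 tags. WAKMAR2, a long non-coding RNA gene, precedes TNFAIP3 in the RefSeq order, and none of the upstream peaks can be assigned to one of both genes.

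**Figure D3:**
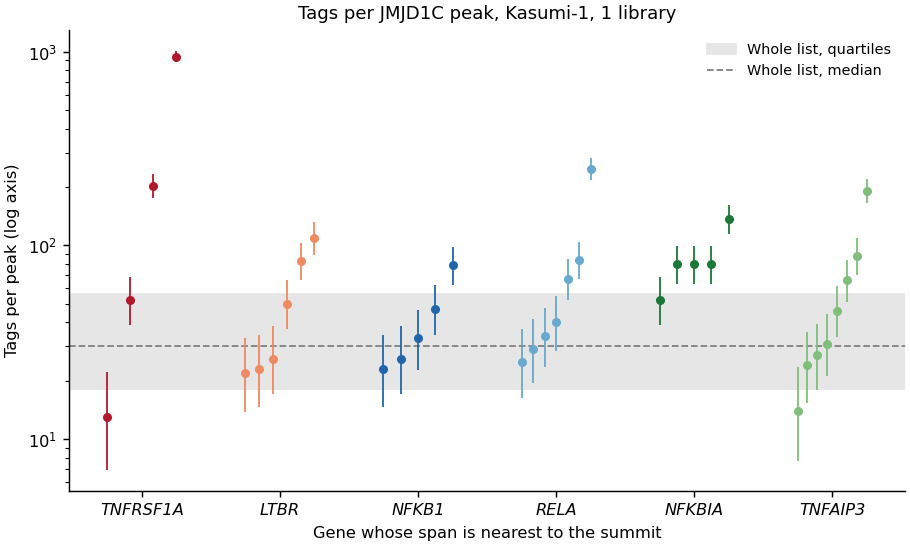
Tags per peak (log axis) with 95% exact Poisson intervals, each peak shown once at the gene whose span is nearest, with the quartiles (18 to 56 tags) and the median (30 tags) of the whole list behind. The TNFRSF1A peak of 943 tags stands far above the others. RELA, TNFRSF1A and TNFAIP3 each have a further peak near 200 tags or above, at 248, 203 and 191, and NFKB1 has none above 79.

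The share of the tags that lay near the 5' end of the span was counted for each gene over the peaks nearest to it. Peaks with a summit within 2 kb of that end, a distance chosen after the values were seen, hold 112 of 208 tags at NFKB1 (53.8%), 216 of 428 at NFKBIA (50.5%) and 119 of 487 at TNFAIP3 (24.4%). They hold 29 of 527 tags at RELA (5.50%) and 50 of 313 at LTBR (16.0%), and TNFRSF1A has no such peak. The LTBR value depends on the limit: within 3 kb it is 159 of 313 tags (50.8%), because the peak of 109 tags lies 2.14 kb upstream, and at the other 5 genes the share is the same at both limits. Both LTBR shares refer to the outer end of the span. The RefSeq start of LTBR lies inside the gene, near the peak of 83 tags, which is not counted. Neither value is therefore the share at that start. NFKBIA, NFKB1 and TNFAIP3 have a pair of peaks less than 200 bp apart at the 5' end, with gaps of 94, 171 and 22 bp. These pairs account for all 6 of the 35 peaks (17.1%, 95% exact Clopper-Pearson interval 6.56% to 33.6%) with a neighbour that close, against 6.56% of the whole list. The gap was chosen after the values were seen, and peaks of a pair are not independent.

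Over all 35 peaks, the signal was somewhat above that of the list in tags and height and near it in fold. The median peak holds 50 tags (quartiles 26.5 and 81.5), against 30 tags (18 and 56) in the whole list. The median summit height is 17.0 fragments (12.5 and 28.5), against 12 (9 and 20). The median fold is 11.19 (8.78 and 16.9), against 10.87 (8.62 and 14.66). Of the 35 peaks, 23 had a fold of 10 or more (65.7%, interval 47.8% to 80.9%), against 60.1% of the list, so this share is near the background. Weak peaks were few: 2 of 35 (5.71%, 0.700% to 19.2%) rest on 20 tags or fewer, against 31.3% of the list, and 1 of 35 (2.86%) has a score under 60, against 15.6%. The tags outside the peak have a median of 123 per 10 kb around the 35 peaks, against 100.1 in the list. None of the 35 was at the genome-wide minimum of 73.7 tags per 10 kb that the caller sets for the background, where 7.72% of the list was. The part of this higher surrounding signal in the tag numbers was not tested.

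**Figure D4:**
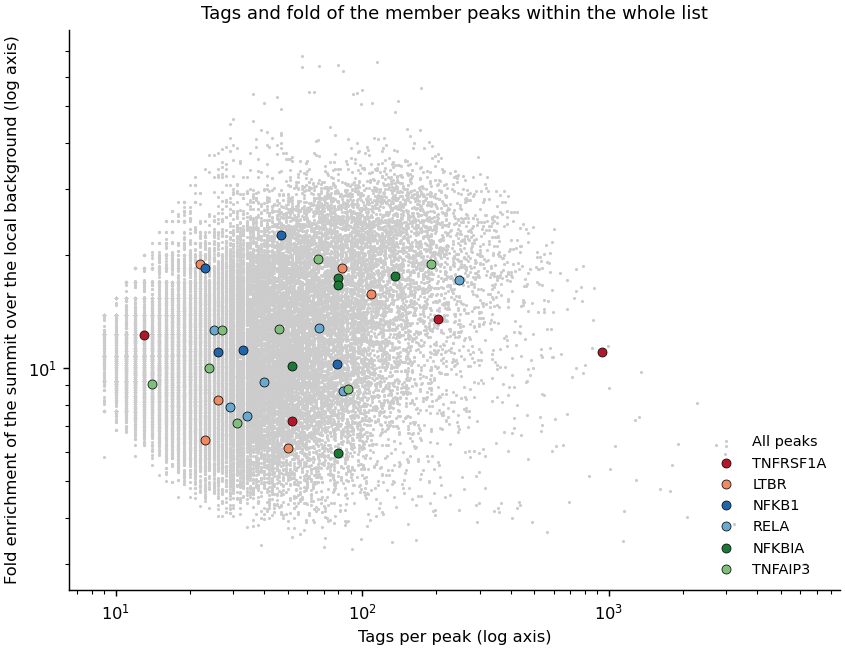
Fold enrichment against tags per peak (log axes) for the 35 peaks, coloured by the nearest gene, over all 36191 peaks in grey. The coloured points lie within the grey cloud, between folds of 5.95 and 22.73. The TNFRSF1A peak is the coloured point furthest right, with 943 tags and a fold of 11.04, while the list reaches 6233 tags.

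Peaks were denser around these genes than along their chromosomes as a whole. The 5 separate windows cover 709 kb and hold 35 peaks, against 8.24 at the average density of the same chromosomes, a ratio of 4.25 (2.96 to 5.91). Chromosome averages include long stretches without genes, and other gene-containing windows were not compared, so the ratio does not set these genes apart. Per gene, the ratio was 6.02 at TNFAIP3, 5.0 at RELA, 4.83 at TNFRSF1A, 4.67 at LTBR, 3.83 at NFKBIA and 2.76 at NFKB1. All of these intervals overlap, from 2.60 to 11.9 at TNFAIP3 down to 0.895 to 6.44 at NFKB1, so the order of the genes is not settled. TNFRSF1A and LTBR have 8 peaks each and share 6 of them, so their ratios are not separate values. The intervals treat peaks as independent, although many have close neighbours, so they may be too narrow. In peaks per 100 kb, the values range from 2.30 at NFKB1 to 7.08 at TNFRSF1A, while the upper quartile of the 29480 tiles of 100 kb is 2 peaks and 7.25% of tiles hold 5 or more. Another peak lies within 10 kb of 26 of the 35 peaks (74.3%, interval 56.7% to 87.5%), against 49.7% of the list. Within 2 kb it was 10 of the 35 (28.6%), against 20.1% of the list.

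The values on both sides of the limit of 50 kb were as follows. For TNFRSF1A, the last peak inside has 13 tags at 43.6 kb and the first outside has 18 tags at 50.1 kb, from 6387799 to 6388140. At RELA the last inside has 40 tags at 49.7 kb and the first outside 42 tags at 58.2 kb. For LTBR the first peak outside is that of 52 tags at 51.4 kb, which is counted with TNFRSF1A. At the other genes the first peak outside lies 60.5 kb (NFKBIA, 16 tags), 69.4 kb (NFKB1, 14 tags) and 76.1 kb (TNFAIP3, 21 tags) from the span.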

How the data were processed

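Only the peaks deposited for JMJD1C in Kasumi-1 were used. The submitters' processing notes name hg19, HOMER and Bowtie2 2.1.0. Per the file headers, the authors called peaks with MACS 1.4.2 without a control (p-value cutoff 1e-05, at most 1 tag per position, 19897991 of 29330355 tags kept, 51-bp tags, 88-bp fragments). The deposited columns are tag counts of each peak, a score (−10 log10 of the Poisson p-value), the fold enrichment as a ratio to the 10 kb around the peak, and positions, per the file headers. Counts are not normalised.

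Gene spans, given to 1 kb, came with the choice of genes, strands from RefSeq; no annotation of hg19 was used here, so exons, introns and other pathway genes were not placed. Genes, windows and words were chosen with earlier results of these data known. All peaks of a window are given; those described in full are, per gene, the peaks with the most tags, with the highest fold and nearest the 5' end. The background per 10 kb was recovered by solving the Poisson tail behind each score, with a window of at least 176 bp, and the summit height as fold times that background times 88 bp. Within 0.05, the background was whole (or at the minimum) in 95.7% of 36185 peaks and the height in 95.5%, where 10% would be so for arbitrary values. Of the 35 peaks, 32 had whole heights. The other 3 did not, so their heights are less certain and were rounded. They are the 203-tag peak upstream of TNFRSF1A (41.41), the 47-tag peak inside NFKB1 (24.14) and the 27-tag peak upstream of TNFAIP3 (16.14). The computation was tested on simulated peaks made with the same formulas, so that test cannot show that the caller used them. The recovered background and height of the TNFRSF1A peak lie above the simulated ranges. So do the backgrounds of the most tag-rich RELA, NFKBIA and TNFAIP3 peaks. Intervals are 95% exact Poisson or Clopper-Pearson and cover counting error only. With 1 library there is no test, and no p-value was computed. Alternatives changed the flank, the placing of peaks, the threshold, the neighbour distance and the ranking. Tools were Matplotlib 3.10.9, pandas 2.3.3, SciPy 1.17.1, NumPy 2.4.6 and Python 3.11.15.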

Additional observations from a re-analysis of the deposited data

How the results depend on the processing

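The number of peaks around the 6 genes was 20 with a flank of 10 kb, 55 with 100 kb and 23 among peaks with a fold of at least 10, against 35 as reported; these follow from the smaller or larger sets. The density ratio to the chromosomes was 6.14 with a flank of 10 kb, and 4.27 without the chromosome 12 window, an alternative chosen after seeing the data. The share with a fold of at least 10 was 83.3% among peaks scoring above the median of the list. Score and fold rest on the same tags and background, and the list share under this score limit was not computed. The value therefore cannot be set against the 60.1% of the whole list. Neighbours within 2 kb were found for 28.6% of the peaks (20.1% of the list) and within 50 kb for 97.1% (85.9% of the list); among peaks with a fold of at least 10, those within 10 kb were found for 39.1% (25.9% of such peaks in the list). The TNFRSF1A peak, number 24 by tags, was number 51 by summit height (chosen after seeing the data), 176 by tags per kb, 253 by score and 17577 by fold; its own tags in the background lower its fold. The sum of tags, 3174, was 2231 without this peak. Of 60 per-gene values recomputed, 40 stayed within 1.5 times and 20 moved further. With a flank of 10 kb, 9 moved and 3 stayed, while all 12 stayed when any overlap with the window was counted. Of the main values recomputed, 15 stayed within 1.5 times and 12 moved further. The weakest peaks hold 13 and 14 tags (exact Poisson intervals 6.92 to 22.2 and 7.65 to 23.5), and how depth affects the list was not tested. No paired analysis was possible because a single unreplicated library gave all values.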
